A study of Danio rerio with 33 samples.

Results

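The unfolded protein response and the folding machinery of the endoplasmic reticulum (ER) were followed in zebrafish embryos through 36 genes. They comprised 7 signal transducers and transcription factors, 14 lumenal chaperones, co-chaperones and lectins, 4 disulfide isomerases, 6 genes of degradation and translocation, and 5 outputs of the PERK arm and the amino acid response. The genes were taken from a list of names and not by a threshold on their values. That list was chosen with earlier results of these data known, so counts of its genes describe the set and are no independent test of it. Each of the 36 was matched to 1 row among the 25432 protein-coding genes of the count table. The symbol matched as written for 34 of them, eif2ak3 matched in another letter case and ern1 matched by its gene ID. All 36 passed the filter on low counts that 22124 of all genes passed. The lowest raw count of a member in any library was 18, for dnajb9a.

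The embryos were of wild type. Exposure began at 96 hours post fertilisation, lasted 24 h and ended at 120 hours. Each library came from a pool of 10 embryos. Controls were 6 vehicle libraries and 3 libraries of mock filters. All other pools received an organic extract of 1 filter that had collected airborne particles. Harbour filters from Barcelona in the cold season were filter 32 with 1 pool, filter 36 with 4 pools and filter 38 with 4 pools. Traffic road filters from Barcelona in the cold season were filter 26 with 4 pools, filter 28 with 4 pools and filter 30 with 1 pool. The 3 airport pools came from 3 Barcelona filters with 1 pool each, filters 44 and 48 of the cold season and filter 54 of the warm season. The 3 subway pools came from 1 Valencia filter, number 80. Pools of 1 filter share the filter, and the sources used here do not say whether they share 1 extract. The labels do not state the dose or whether the pools of a group came from separate matings, so p-values measure the spread between pools. In the fits by site that spread also holds the differences between the filters of a site, harbour and road included.

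The ER folds secreted and membrane proteins. When unfolded proteins accumulate there, the sensors Ire1 (ern1), Perk (eif2ak3) and Atf6 (atf6) start the unfolded protein response. Ire1 splices xbp1 mRNA, Perk slows translation and favours translation of Atf4, and Atf6 is released by proteolysis to act as a transcription factor. Their targets include chaperones, oxidoreductases and the degradation machinery that removes misfolded proteins from the ER. Atf4 also answers to lack of amino acids through other kinases, so its targets are shared with the integrated stress response. In larval zebrafish the exocrine pancreas, the liver, the cartilage and the notochord are tissues with a large secretory load. Counts per gene do not separate spliced from unspliced xbp1, and they carry no measure of phosphorylation or proteolysis.

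Total counts ran from 18448718 to 51854033 per library (median 23815527). Levels are given below as CPM, the counts of a gene relative to the total of its library on a common scale, with TMM scaling factors applied. Levels of different genes are not compared, because CPM is not corrected for gene length. The libraries fell into 3 library series by their names, 15 in series 35, 14 in series 37 and 4 in series 38. Series 35 was sequencing round 1 and series 37 and 38 were round 2. All airport and mock filter pools were in series 35 with vehicle 1 to 3, and all subway pools were in series 38. Vehicle 4 to 6 were in series 37. Uniquely mapped reads made up 71.7 to 77.1% in round 1 and 78.7 to 79.5% in round 2. Log2 fold changes and adjusted p-values come from edgeR's quasi-likelihood test over all 22124 genes with the round as a covariate. Standard errors (SE) were derived from that test, as the size of the log2 change divided by the square root of its F statistic. A gene was called where the Benjamini-Hochberg adjusted p was under 0.05. The vehicle libraries were not uniform in the chaperone genes. For hspa5, vehicle 1 and 2 lay at 86.1 and 106 CPM and vehicle 3 to 6 between 144 and 159.9 CPM. Summed over 15 antiviral interferon genes, vehicle 3 was the highest vehicle library at 157 CPM, and the 6 vehicle libraries had a median of 42.2 CPM.

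**Figure D1:**
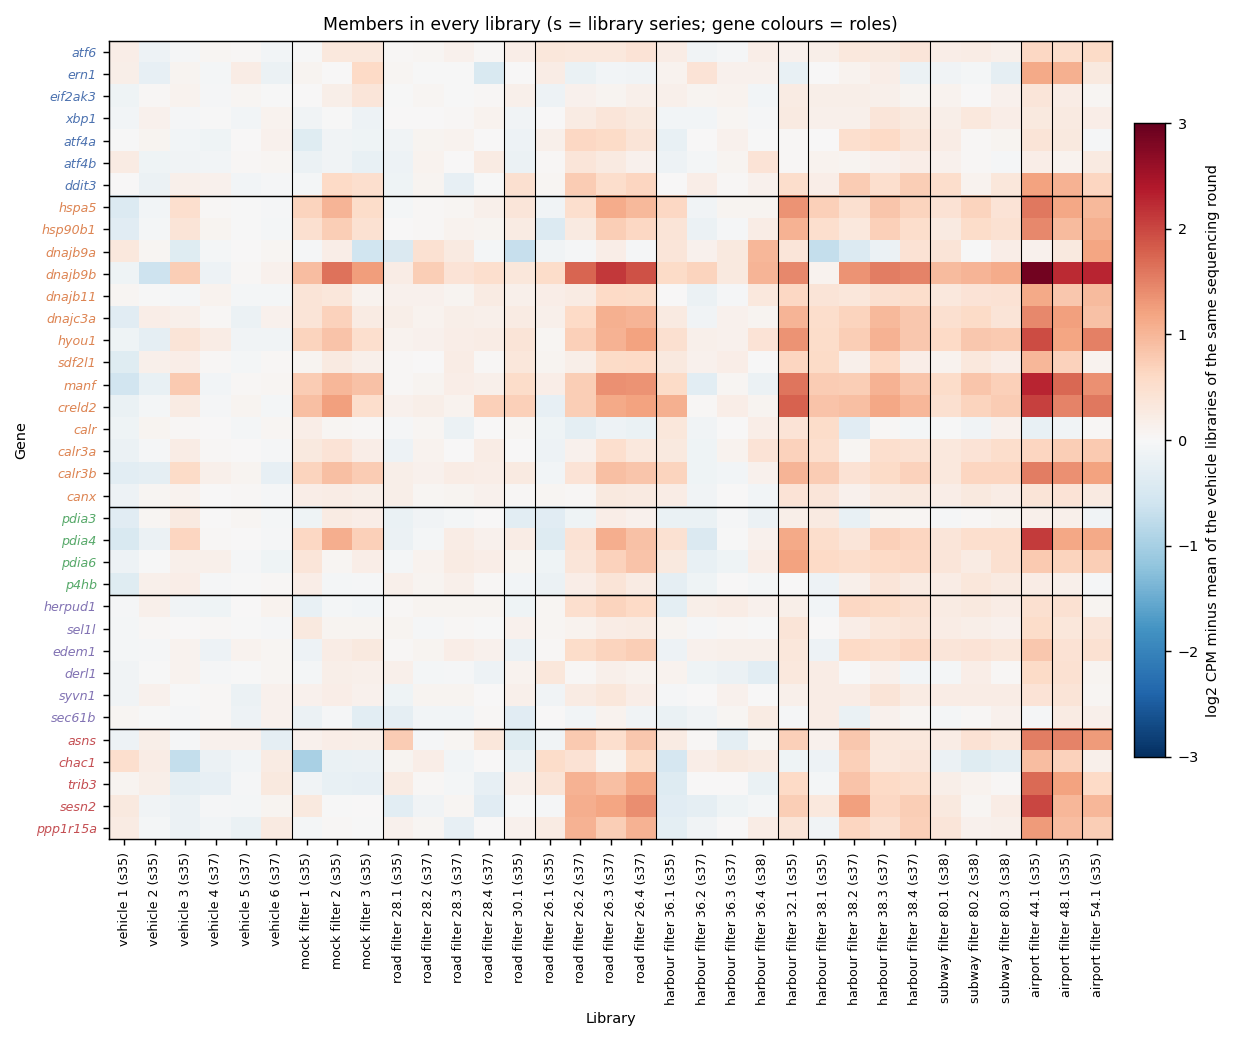
Heat map of the 36 genes (rows, grouped by role) in the 33 libraries (columns, with the library series in brackets). Colour is log2 CPM minus the mean of the vehicle libraries of the same sequencing round. The airport columns and harbour filter 32 are the reddest in the chaperone rows. Road filter 26 pools 2 to 4, harbour filter 38, subway and mock filter columns are also red there, with dnajb9b the strongest row.

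Most of the ER folding and stress genes were higher in the embryos of the airport extracts. Of the 36 genes 30 rose against vehicle and 0 fell, beside 16.9% of all genes tested that rose and 16.6% that fell. The median log2 fold change of the 36 was 0.72, and that of all genes was -0.026. The largest changes were in the co-chaperone gene dnajb9b, the secreted ER proteins manf and creld2 and the exchange factor hyou1. By role, 5 of 7 transducers and transcription factors, 13 of 14 chaperones and lectins, 2 of 4 disulfide isomerases, 5 of 6 genes of degradation and translocation and 5 of 5 PERK and amino acid outputs rose. For 22 of the 36 the 3 airport pools lay above all 6 vehicle libraries, a pattern that 12.5% of all genes showed. In whole-embryo RNA a change in the number of cells of a type and a change in RNA per cell cannot be told apart. All airport pools were in series 35. In that series alone 23 of the 36 rose against vehicle 1 to 3 and 0 fell, beside 9.51% of all genes that rose. Taken filter by filter, 30 rose with filter 44, 28 with filter 48 and 21 with filter 54, beside 12.8, 10.3 and 11.7% of all genes. These 3 comparisons share the vehicle libraries, and each rests on 1 pool whose spread is assumed to equal that of the other groups. Without vehicle 1 and vehicle 2 together, a choice made after their values were seen, 30 rose and 0 fell, beside 16.7% of all genes that rose. In that fit derl1 was not called (adjusted p = 0.251) and atf4a was (adjusted p = 0.0285).

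**Figure D2:**
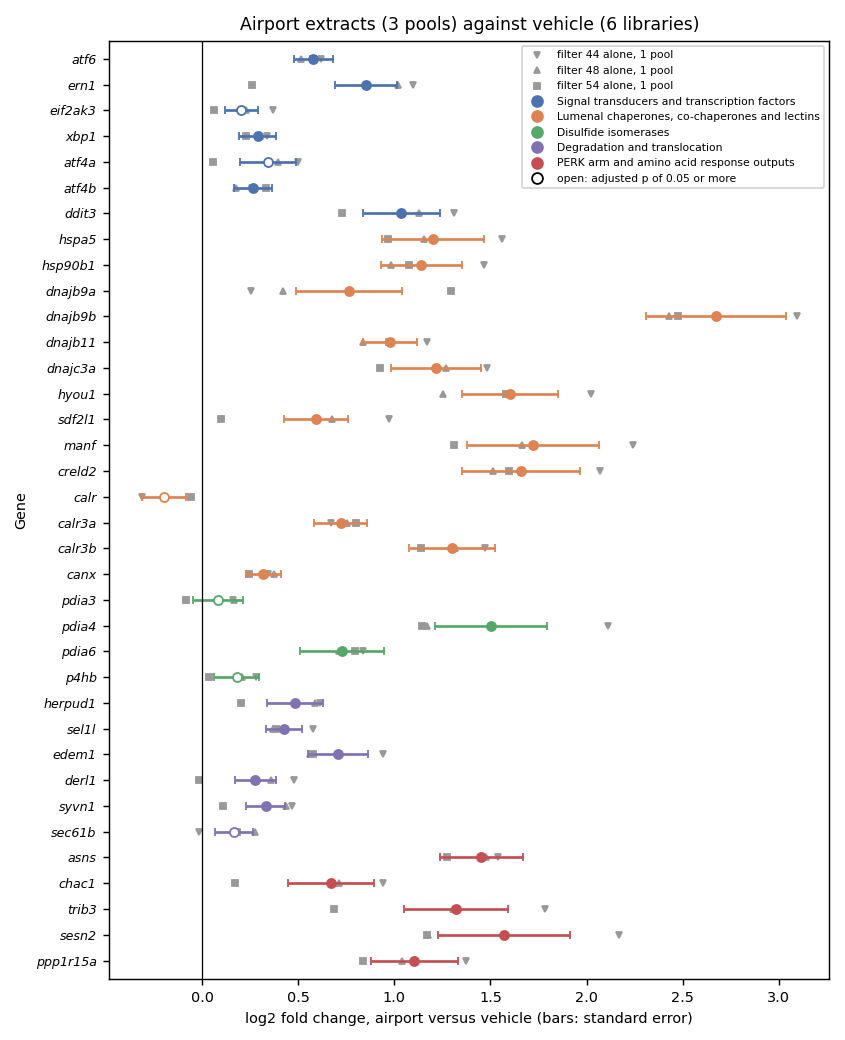
Log2 fold change of each gene in airport (3 pools) against vehicle (6 libraries), with SE bars and colours for roles. Filled points were called and open points were not, and grey symbols give each airport filter alone. The filter 44 symbol is the rightmost for dnajb9b, manf, sesn2, pdia4 and hyou1, and the calr point is the 1 on the left of 0.

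Among the transducers, atf6, which encodes the membrane-bound transcription factor, lay at 107, 99.9 and 104 CPM with filters 44, 48 and 54, the order used for all airport values. The vehicle libraries ran from 62.4 to 79.4 CPM (median 71.4), so the groups did not overlap and atf6 rose by 0.58 ± 0.10 (SE; adjusted p = 0.000176) on the log2 scale. For ern1, which encodes the sensor Ire1, the airport pools lay at 40.6, 38.5 and 22.7 CPM. Its vehicle values differed by series, at 20.7, 15.4 and 19.5 CPM in vehicle 1 to 3 and 31.04, 37.9 and 28.4 CPM in vehicle 4 to 6. The airport pools exceeded the vehicle libraries of their own series, filter 54 by the least, and ern1 rose by 0.85 ± 0.16 (SE; adjusted p = 0.000299). The pro-apoptotic transcription factor gene ddit3 (Chop) lay at 97.5, 86.0 and 65.2 CPM against 37.5 to 53.7 CPM in vehicle (median 46.5). All 3 airport pools were above the vehicle range, and ddit3 rose by 1.04 ± 0.20 (SE; adjusted p = 0.000340). The level of xbp1, the target of Ire1 splicing, was 207, 201 and 192 CPM against 158 to 184 CPM in vehicle, above that range in each pool. It rose by 0.29 ± 0.10 (SE; adjusted p = 0.0242). For atf4b, a zebrafish copy of the translational target of Perk, airport values of 215, 203 and 226 CPM overlapped the vehicle range of 144 to 221 CPM, and the fitted rise was 0.27 ± 0.10 (SE; adjusted p = 0.0378). The other copy, atf4a, lay at 162, 151 and 119.5 CPM against 98.6 to 131 CPM and was not called (0.34 ± 0.15 SE, adjusted p = 0.0686). Nor was eif2ak3, the gene of Perk itself, at 0.20 ± 0.086 (SE; adjusted p = 0.0648). With filter 44 alone both passed, atf4a at 0.50 ± 0.14 (SE; adjusted p = 0.00877) and eif2ak3 at 0.37 ± 0.12 (SE; adjusted p = 0.0280). The 2 copies atf4a and atf4b, like dnajb9a and dnajb9b or calr3a and calr3b, are paralogs, and how reads shared between paralogs were counted is not given in the sources used here.

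The chaperone genes held the 4 largest changes of the 36. The co-chaperone gene dnajb9b, whose mammalian product works with BiP and binds Ire1, lay at 11.09, 6.998 and 7.23 CPM against 0.977 to 2.47 CPM in vehicle (median 1.54). Each airport pool was far above the vehicle range, and dnajb9b rose by 2.68 ± 0.36 (SE; adjusted p = 1.67e-05). Its counts were low, with a lowest raw count of 21 in any library. For dnajb11, another BiP co-chaperone, 78.6, 62.5 and 68.7 CPM stood against 34.8 to 40.5 CPM with no overlap (rise of 0.98 ± 0.14 SE, adjusted p = 2.37e-05). The nucleotide exchange factor of BiP, hyou1, lay at 136, 79.5 and 99.9 CPM against 28.98 to 50.7 CPM (median 40.2), again without overlap, and rose by 1.603 ± 0.25 (SE; adjusted p = 5.76e-05). BiP itself, the master chaperone encoded by hspa5, lay at 338, 255 and 224 CPM against 86.1 to 159.9 CPM (median 145). Its airport pools were all above vehicle, with filter 54 the lowest, and hspa5 rose by 1.202 ± 0.27 (SE; adjusted p = 0.00114). The ER form of Hsp90, hsp90b1, lay at 329, 235 and 251 CPM against 95.7 to 158 CPM and rose by 1.14 ± 0.21 (SE; adjusted p = 0.000246). For dnajc3a, a co-chaperone that in mammals also restrains Perk, the values were 31.1, 26.82 and 21.1 against 8.98 to 13.1 CPM (rise of 1.22 ± 0.23 SE, adjusted p = 0.000346). In both genes no airport pool reached down to the vehicle range. The neurotrophic ER protein gene manf lay at 37.1, 24.8 and 19.4 CPM against 5.09 to 13.1 CPM and rose by 1.72 ± 0.35 (SE; adjusted p = 0.000488). Creld2, an ER stress-induced protein, lay at 11.15, 7.59 and 8.02 CPM against 2.34 to 3.75 CPM and rose by 1.66 ± 0.31 (SE; adjusted p = 0.000238). Filter 44 was the highest pool for both, and neither gene overlapped with vehicle.

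The lectin chaperones, which hold glycoproteins during folding, split by gene. For calr3b, a calreticulin, the airport pools lay at 145, 130.2 and 115 CPM against 40.6 to 74.7 CPM (rise of 1.299 ± 0.22 SE, adjusted p = 0.000131). For calr3a the values were 164, 174 and 179.7 against 92.3 to 122 CPM (rise of 0.72 ± 0.14 SE, adjusted p = 0.000365). Both stood above vehicle in every airport pool. Calnexin, canx, rose less, at 414, 423 and 386 against 286 to 341 CPM (0.32 ± 0.092 SE, adjusted p = 0.00847). The third calreticulin gene, calr, lay at 94.0, 102 and 112 CPM and was not called (-0.20 ± 0.11 SE, adjusted p = 0.189). Against the vehicle range of 99.6 to 116 CPM, filter 44 was below and the other 2 pools were inside. The remaining genes of this role rose with pools that overlapped vehicle. The stress-inducible sdf2l1, a BiP partner, lay at 28.6, 23.2 and 15.6 CPM against 11.27 to 16.6 CPM (rise of 0.59 ± 0.17 SE, adjusted p = 0.00750). The paralog dnajb9a, the gene with the fewest counts, lay at 1.71, 1.92 and 3.53 CPM against 1.21 to 1.94 CPM (rise of 0.76 ± 0.28 SE, adjusted p = 0.0317). For dnajb9a filter 54 was the 1 pool above vehicle, and without it the rise was 0.37 (adjusted p = 0.392). The filter 54 library was also the deepest, at 51854033 counts, and the part of depth in this call was not tested.

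Of the 4 disulfide isomerases, which form and rearrange disulfide bonds, 2 rose. For pdia4 the airport pools lay at 132, 68.6 and 67.3 CPM against 22.4 to 47.7 CPM in vehicle (median 39.1). Filter 44 was well above the other pools at 132 CPM, all 3 were above vehicle, and pdia4 rose by 1.502 ± 0.29 (SE; adjusted p = 0.000365). For pdia6 the values were 57.1, 52.3 and 55.5 against 29.9 to 49.2 CPM, without overlap (rise of 0.73 ± 0.22 SE, adjusted p = 0.0105). The partner of calnexin and calreticulin, pdia3, lay at 224, 226 and 189 CPM inside 159.7 to 245 CPM and was not called at 0.080 ± 0.13 (SE; adjusted p = 0.672). The classical isomerase p4hb, also a subunit of the collagen-modifying prolyl hydroxylase, lay at 254, 241 and 214 CPM against 170.4 to 252 CPM and was not called at 0.18 ± 0.12 (SE; adjusted p = 0.252). The 95% intervals of the log2 change ran from -0.19 to 0.35 for pdia3 and from -0.064 to 0.42 for p4hb. Small changes in either direction were therefore not detectable with 3 pools and the spread of this fit.

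The degradation machinery rose by smaller amounts. Edem1, which takes mannose-trimmed glycoproteins out of the folding cycle, lay at 81.6, 62.6 and 63.3 CPM against 35.2 to 49.98 CPM (median 43.3), without overlap, and rose by 0.71 ± 0.16 (SE; adjusted p = 0.00114). The adaptor of the Hrd1 ubiquitin ligase, sel1l, lay at 59.8, 51.8 and 52.4 CPM against 39.1 to 47.6 CPM, also without overlap, and rose by 0.43 ± 0.092 (SE; adjusted p = 0.000945). The ligase gene itself, syvn1, lay at 35.8, 35.04 and 27.95 CPM, with filter 54 inside the vehicle range of 22.7 to 29.5 CPM (rise of 0.33 ± 0.10 SE, adjusted p = 0.0118). For herpud1, a stress-induced membrane component of the same complex, the values were 59.3, 58.2 and 44.6 CPM, with filters 44 and 48 above the vehicle range of 31.6 to 47.2 CPM and filter 54 inside it (rise of 0.48 ± 0.15 SE, adjusted p = 0.0111). The same 2 pools were above vehicle for derl1, a channel component, at 53.3, 49.2 and 37.96 against 33.3 to 39.1 CPM (rise of 0.28 ± 0.11 SE, adjusted p = 0.0452). Without filter 44 herpud1, syvn1 and derl1 had adjusted p of 0.0689, 0.0858 and 0.299. The translocon subunit gene sec61b was not called at 0.16 ± 0.10 (SE; adjusted p = 0.216).

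All 5 outputs of the PERK arm and amino acid response rose. Asparagine synthetase, asns, lay at 37.03, 35.4 and 30.8 CPM against 11.4 to 17.4 CPM in vehicle (median 13.8), with no overlap, and rose by 1.45 ± 0.22 (SE; adjusted p = 3.74e-05). The phosphatase subunit ppp1r15a (Gadd34), which restores translation, lay at 106, 84.0 and 73.0 CPM against 36.4 to 51.99 CPM and rose by 1.103 ± 0.23 (SE; adjusted p = 0.000577). The pseudokinase trib3, an inhibitor of Atf4 and Chop signalling in mammals, lay at 130.1, 93.3 and 60.8 CPM against 33.4 to 49.1 CPM and rose by 1.32 ± 0.27 (SE; adjusted p = 0.000578). In both, the 3 airport pools were above vehicle and their order was filter 44, 48, 54. The stress regulator of mTORC1 sesn2 lay at 19.7, 9.88 and 9.85 CPM against 4.33 to 6.06 CPM (rise of 1.57 ± 0.34 SE, adjusted p = 0.00103), with filter 44 the highest pool. For chac1, which degrades glutathione, filter 54 overlapped vehicle, at 807, 688 and 472 against 260.2 to 604 CPM, and the rise was 0.67 ± 0.22 (SE; adjusted p = 0.0215). Vehicle 1 and vehicle 3 were the extremes of that range at 604 and 260.2 CPM. Without filter 44 the adjusted p of chac1 was 0.155.

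Lists of neighbouring pathways outside the 36 genes are given for airport beside the same background, 16.9% of all genes higher and 16.6% lower, and nothing is read from a list near those shares. Of 33 further genes of the integrated stress response and Atf4 targets 16 rose and 3 fell (median log2 change 0.23, beside -0.026 for all genes). The asparaginyl-tRNA synthetase nars1 rose by 0.95 ± 0.16 (SE; adjusted p = 9.21e-05), ddit4, an inhibitor of mTORC1 signalling, rose by 1.63 ± 0.28 (SE; adjusted p = 0.000136), and slc3a2a, an amino acid transporter subunit, fell, with a change of -0.50 ± 0.10 (SE; adjusted p = 0.000483). Of 23 genes of ER-associated degradation 9 rose and 2 fell (median 0.31). Among them faf2, nploc4 and selenos, which help to extract proteins from the ER membrane, rose by 0.54 ± 0.086 (SE; adjusted p = 6.33e-05), 0.53 ± 0.095 (SE; adjusted p = 0.000179) and 0.54 ± 0.10 (SE; adjusted p = 0.000277). Of 31 genes of ER to Golgi transport 17 rose and 1 fell (median 0.24). The smallest p-values there were those of the coat protein genes sec24d (0.63 ± 0.10 SE, adjusted p = 4.37e-05) and sec23a (0.54 ± 0.085 SE, adjusted p = 6.17e-05) and the cargo receptor tmed9 (0.79 ± 0.13 SE, adjusted p = 7.61e-05). Of 21 genes of the translocon and signal peptide handling 7 rose and 0 fell (median 0.087), among them srpra, sec63 and srp54 (0.66, 0.42 and 0.49). Of 27 genes of N-glycosylation 9 rose and 1 fell (median 0.026). In that list gfpt1 and uap1, which make the sugar donor, rose by 0.83 ± 0.13 (SE; adjusted p = 7.23e-05) and 0.97 ± 0.21 (SE; adjusted p = 0.000920), and tusc3, an oligosaccharyltransferase subunit, fell (-0.70 ± 0.15 SE, adjusted p = 0.000654). Of 10 further stress transducers and processing enzymes 5 rose and 2 fell (median 0.32), with creb3l2 at 0.66 ± 0.14 (SE; adjusted p = 0.000887) and creb3l1 at -0.53 ± 0.13 (SE; adjusted p = 0.00323), both relatives of Atf6. Of 9 cell death outputs 3 rose and 0 fell (median 0.56), namely tnfrsf1a, bbc3 and bida.

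In the wider oxidative folding list 6 of 33 genes rose and 9 fell, beside 16.9% and 16.6% of all genes (median log2 change -0.11). The BiP exchange factor sil1 rose by 1.15 ± 0.19 (SE; adjusted p = 8.64e-05) and the calcium-binding sdf4 by 0.67 ± 0.12 (SE; adjusted p = 0.000133). Fkbp10b, a prolyl isomerase that in mammals serves collagen folding, fell with a log2 change of -1.49 ± 0.25 (SE; adjusted p = 0.000128). The other 8 that fell were pdia7, pdia8, txndc5, prdx4, fkbp11, fkbp14, rcn1 and rcn3. The others that rose were ero1b, tmx1, dnajc10 and txndc11. These further genes are named after their values were seen. Cartilage and notochord markers moved in the same libraries. Of 18 such markers 14 fell in airport and 0 rose (median log2 change -1.19), and their summed level was 1675 to 2480.0 CPM in the airport pools against 4147 to 5127 CPM in vehicle. Of 18 exocrine pancreas markers 6 fell and 1 rose, with summed levels of 5801 to 7162 against 4622 to 8554 CPM. Of 19 liver markers 8 rose and 5 fell (12586 to 14784 against 8575 to 10574 CPM), and of 11 mucous cell markers 5 rose and 1 fell (574 to 779.7 against 391 to 526 CPM). No marker of the pancreas, liver or cartilage lists was at 0 in any library. Of 15 antiviral interferon genes 3 rose in airport and 0 fell, close to the background for higher genes, and the sums were 75.5 to 105 CPM in airport, 44.8 to 156 CPM in mock filter and 32.7 to 157 CPM in vehicle. The part of these markers in the changes of the 36 genes was not tested.

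Against the other groups the airport pools were also higher in many of the genes. Compared with the 3 mock filter libraries 14 of the 36 were higher and 0 lower, beside 9.89% of all genes higher and 7.68% lower. In series 35 alone the count was also 14, beside 7.92% of all genes. By role, 5 of 5 PERK and amino acid outputs, 4 of 7 transducers, 4 of 14 chaperones and lectins, 1 of 6 degradation genes and 0 of 4 isomerases passed, with trib3 at 1.42 ± 0.31 (SE; adjusted p = 0.00466) and asns at 1.27 ± 0.25 (SE; adjusted p = 0.00252). Trib3 lay at 130.1, 93.3 and 60.8 CPM in airport and 37.1, 34.7 and 33.9 CPM in mock filter, and asns at 37.03, 35.4 and 30.8 and 13.8, 14.6 and 14.4 CPM, with no overlap in either gene. BiP did not pass, with 338, 255 and 224 CPM in airport and 179, 229 and 166 CPM in mock filter (0.51 ± 0.30 SE, adjusted p = 0.242), and the ranges overlapped. The count rests on single libraries. The count over all libraries was 4 without airport filter 44, beside 5.61% of all genes. It was 7 without mock filter 1, 7 without mock filter 2 and 6 without mock filter 3, fits for which the share of all genes is not given. A single gene, chac1, was called without mock filter 2 and 3 and vehicle 3, the libraries high in interferon genes. Compared with the 9 harbour pools 18 were higher and 1, calr, was lower, beside 8.84% and 9.78% of all genes. In series 35 alone these counts were 13 and 1, beside 7.98% and 9.16%. Compared with the 9 road pools 21 were higher and 0 lower, beside 8.73% of all genes higher and 9.14% lower. In series 35 alone 20 were higher, beside 6.67%. In the 2 comparisons the fitted log2 differences were 1.78 ± 0.35 and 1.71 ± 0.35 for dnajb9b and 0.95 ± 0.24 and 1.12 ± 0.25 for hyou1. For sesn2 they were 1.22 ± 0.33 and 1.18 ± 0.34. These comparisons share the airport pools. Without airport filter 44 the counts were 5 against harbour and 9 against road, beside 3.6% and 4.49% of all genes. Without harbour filter 36 the count was 7 against harbour, beside 3.85%, and without road filter 28 it was 6 against road, beside 2.22%. For calr, airport was at 94.0, 102 and 112 CPM and harbour ran from 87.1 to 161 CPM (median 114). The ranges over all pools overlapped. In series 35, which held all airport pools, the harbour pools lay at 144, 138 and 161 CPM for filters 32, 36 and 38, above the airport pools. The difference of -0.36 ± 0.11 (SE; adjusted p = 0.0266) lost its call without harbour filter 32, without the first pool of harbour filter 36 or of harbour filter 38, and without airport filter 44 or 48.

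The mock filter libraries tended to lie above vehicle in the chaperone genes, but no difference passed. Against vehicle 0 of the 36 were called by edgeR, 13 were higher and 0 lower at an unadjusted p under 0.05, and DESeq2 called 1, dnajb9b. Over all genes edgeR called 0.0136% higher and 0% lower, and 6.16% were higher at an unadjusted p under 0.05. DESeq2 called 46 of all genes higher and 38 lower. BiP lay at 179, 229 and 166 CPM in mock filter 1 to 3 against 86.1, 106 and 159.9 CPM in vehicle 1 to 3 of the same series (0.69 ± 0.27 SE, adjusted p = 0.291). Dnajb9b lay at 2.82, 4.61 and 3.56 CPM against 1.37, 0.977 and 2.47 CPM (1.47 ± 0.38 SE, adjusted p = 0.151). In both genes the 3 mock filter libraries were above these 3 vehicle libraries. The median over the 14 chaperone and lectin genes, as log2 difference from the vehicle mean of the round, was 0.35 to 0.71 in the mock filter libraries and -0.19 to 0.23 in vehicle. Over the 5 PERK and amino acid outputs it was -0.050 to -0.010 in the mock filter libraries. Chac1 was at 218, 371 and 378 CPM in mock filter (-0.35 ± 0.23 SE, adjusted p = 0.528). Mock filter 2 and 3 were also 2 of the libraries high in antiviral interferon genes, and whether this bears on the chaperone values was not tested. In series 35 alone 0 genes were called. Without vehicle 3, the vehicle library highest in hspa5 and in the interferon genes, 2 genes were called, dnajb9b (1.83; adjusted p = 0.00550) and calr3b (0.90; adjusted p = 0.0219). The share of all genes is not given for that fit.

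In the subway pools the median of the 14 chaperone and lectin genes, on the same log2 scale, was 0.35 to 0.56 and that of the 5 PERK and amino acid outputs was 0.10 to 0.23. Of the 36 genes 0 were called by edgeR or DESeq2 against vehicle. At an unadjusted p under 0.05, 6 were higher and 0 lower. Over all genes edgeR called 0.108% higher and 0.0362% lower, and 5.5% were higher at an unadjusted p under 0.05. DESeq2 called 96 of all genes higher and 60 lower. BiP lay at 197, 234 and 195 CPM in the 3 pools, above all 6 vehicle libraries, whose highest was 159.9 CPM (0.52 ± 0.27 SE, adjusted p = 0.503). Hyou1 lay at 65.9, 75.9 and 75.3 CPM against 28.98 to 50.7 CPM, without overlap (0.69 ± 0.25 SE, adjusted p = 0.301). Calr3a lay at 137, 147 and 159 CPM against 92.3 to 122 CPM, again without overlap (0.41 ± 0.14 SE, adjusted p = 0.269). In all, the 3 subway pools were above the 6 vehicle libraries for 18 of the 36 genes, a pattern shown by 6.63% of all genes. Of the 5 PERK and amino acid outputs, asns was among the 18, at 18.6, 21.5 and 19.8 CPM against 11.4 to 17.4 CPM in vehicle (0.30 ± 0.22 SE, adjusted p = 0.670). Trib3, chac1, sesn2 and ppp1r15a were not. Trib3 lay at 45.3, 43.0 and 41.4 CPM inside the vehicle range (-0.018 ± 0.28 SE, adjusted p = 0.991), and chac1 lay at 337, 297 and 314 CPM below vehicle 4 to 6, which were at 340.1, 363 and 451 CPM (-0.43 ± 0.24 SE, adjusted p = 0.530). In a fit of the subway and vehicle libraries alone 4 genes passed, dnajb11, hyou1, calr3a and edem1. The share of all genes is not given for that fit, so nothing is read from the count. The subway pools were in series 38 and the vehicle libraries of that round in series 37, so the site and the series cannot be told apart.

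**Figure D3:**
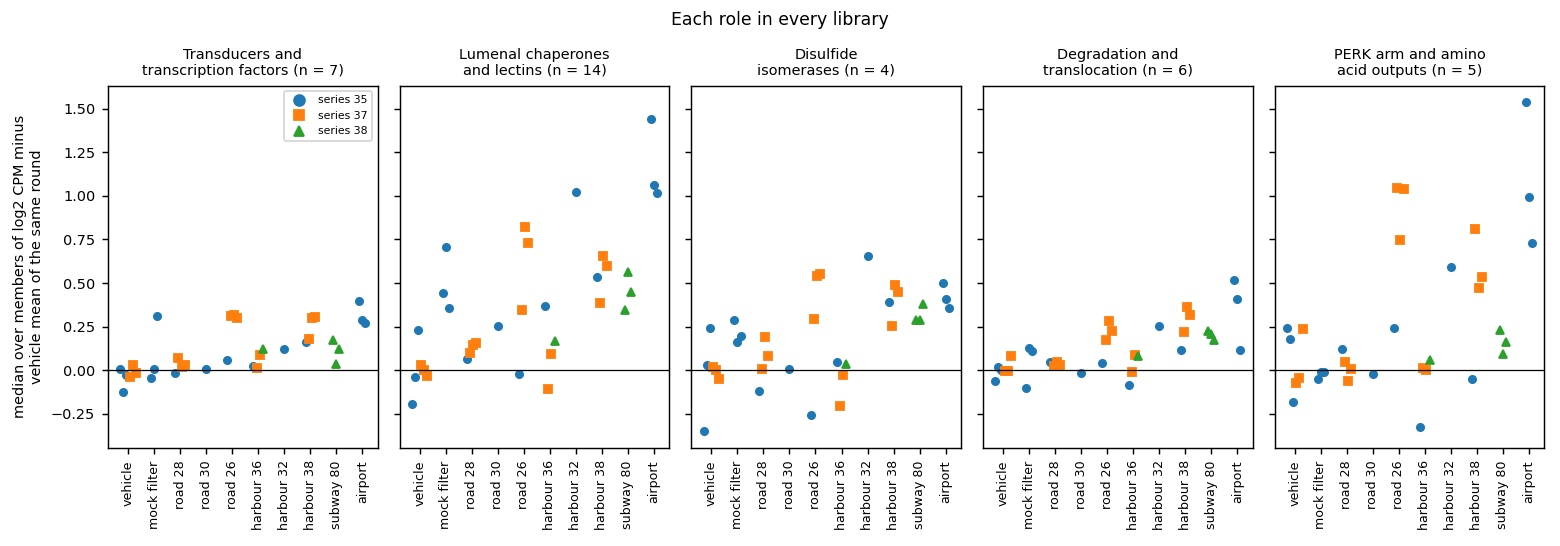
Median over the genes of each role of log2 CPM minus the vehicle mean of the same round, 1 point per library, with shapes and colours for library series. In the chaperone panel the mock filter and subway points lie above the line at 0, and in the PERK panel the mock filter points lie close to it. The airport points are high in both panels. The series 37 points of road filter 26 are high in the PERK panel, and in the chaperone panel 1 of them lies below the mock filter and subway points.

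Taken as whole sites, harbour and road showed no called gene among the 36. Harbour against vehicle had 0 called by edgeR, 16 higher and 0 lower at an unadjusted p under 0.05, and 2 called by DESeq2, hyou1 and creld2. The edgeR background was 0.434% of all genes called higher, 0.181% called lower and 8.47% higher at an unadjusted p under 0.05. DESeq2 called 227 of all genes higher and 136 lower. Road against vehicle had 0 called by edgeR, 12 higher and 0 lower at an unadjusted p under 0.05, and 1 called by DESeq2, dnajb9b. Here edgeR called 0.258% of all genes higher and 0.0949% lower, and 8.04% were higher at an unadjusted p under 0.05. DESeq2 called 182 of all genes higher and 85 lower. Harbour against road had 0 called by edgeR or DESeq2 and 2 higher at an unadjusted p under 0.05. Of all genes edgeR called 0%, and 2.42% were higher at an unadjusted p under 0.05. DESeq2 called 0 of all genes higher and 3 lower. Within series 35 and within series 37 each of the 3 comparisons also called 0 of the 36. The median log2 change of the 36 was 0.20 in harbour and 0.21 in road. The pools of a site were far from uniform. For hyou1 the 9 harbour pools ran from 47.4 to 89.4 CPM (median 57.9) and the 9 road pools from 36.06 to 100.1 CPM (median 50.2), against 28.98 to 50.7 CPM in vehicle. The high pools belonged to filters 32 and 38 in harbour and to filter 26 on the road. With harbour filter 36 left out, 17 of the 36 were called higher in harbour, beside 7.14% of all genes, and with road filter 28 left out, 8 were called higher in road, beside 3.6%.

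**Figure D4:**
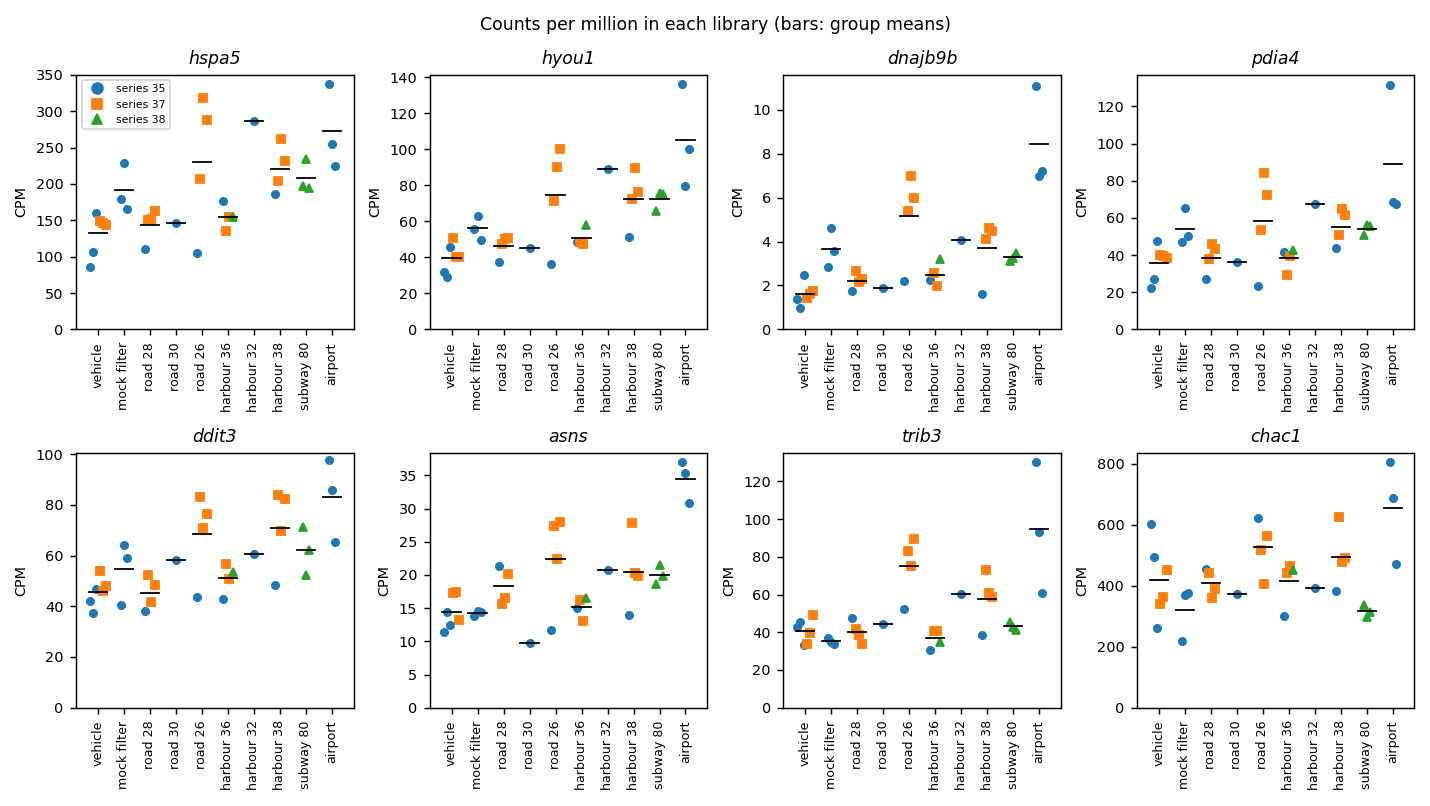
CPM of 8 genes in every library, by filter, with the group mean as a bar and shapes and colours for library series. The airport mean is the highest bar in each panel except hspa5, where the single pool of harbour filter 32 lies above it. Within road filter 26 the series 35 pool lies apart from the 3 series 37 pools in hspa5, hyou1, dnajb9b, pdia4, ddit3, asns and trib3.

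Filter by filter, road filter 26 had 20 of the 36 genes higher than vehicle and 0 lower, beside 9.45% of all genes higher and 7.33% lower. Road filter 28 had 0 higher and 0 lower by edgeR and by DESeq2, with 0 at an unadjusted p under 0.05. For this filter edgeR called 0.0768% of all genes higher and 0.0136% lower, and 3.12% were higher at an unadjusted p under 0.05. DESeq2 called 33 of all genes higher and 9 lower. Road filter 30, with 1 pool, had 0 called by either tool, and 1 higher and 1 lower at an unadjusted p under 0.05. Over all genes 0.0497% were called higher, 0.00904% lower and 4.9% were higher at an unadjusted p under 0.05. For hspa5, pools 1 to 4 of filter 26 lay at 106, 207, 318 and 288 CPM and those of filter 28 at 109.9, 150.4, 152 and 163 CPM. The first pool of each filter was of series 35 and the others of series 37. In series 37 the filter 26 pools were above vehicle 4 to 6, which lay at 149, 146 and 144 CPM, while its series 35 pool lay at the level of vehicle 2. The PERK output trib3 lay at 52.4, 83.1, 75.3 and 89.4 CPM with filter 26 and 47.7, 41.6, 38.6 and 33.7 CPM with filter 28, against 33.4 to 49.1 CPM in vehicle. Sesn2 lay at 4.83, 10.8, 11.6 and 13.4 CPM with filter 26 and 3.95, 4.74, 5.31 and 4.02 CPM with filter 28, against 4.33 to 6.06 CPM in vehicle. For both genes the 3 later pools of filter 26 were above every vehicle library and every pool of filter 28. The fitted changes of filter 26 over all 4 pools were 0.67 ± 0.18 (SE; adjusted p = 0.0144) for hspa5, 0.82 ± 0.14 (SE; adjusted p = 0.000568) for trib3 and 0.88 ± 0.17 (SE; adjusted p = 0.00129) for sesn2. Without pool 4 of filter 26, 13 of the 36 genes were called, in a fit for which the share of all genes is not given.

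In harbour, filter 38 had 23 of the 36 genes higher than vehicle and 0 lower, beside 6.74% of all genes higher and 3.34% lower. Filter 36 had 0 called by edgeR or DESeq2 and 0 at an unadjusted p under 0.05. For this filter edgeR called 0.0497% of all genes higher and 0.00904% lower, and 3.18% were higher at an unadjusted p under 0.05. DESeq2 called 17 of all genes higher and 6 lower. For hyou1, pools 1 to 4 of filter 38 lay at 51.2, 72.3, 89.4 and 76.5 CPM and those of filter 36 at 48.6, 48.3, 47.4 and 57.9 CPM. Manf lay at 12.8, 16.6, 20.5 and 17.7 CPM with filter 38 and 11.28, 7.99, 10.3 and 8.77 CPM with filter 36. The 3 later pools of filter 38, all of series 37, were above every pool of filter 36 in both genes. Ddit3 lay at 48.4, 84.0, 69.6 and 82.2 CPM with filter 38 and 42.7, 56.8, 50.7 and 53.6 CPM with filter 36, with the same 3 pools apart. The fitted changes of filter 38 against vehicle were 0.73 ± 0.15 (SE; adjusted p = 0.00415) for hyou1, 0.79 ± 0.21 (SE; adjusted p = 0.0183) for manf and 0.51 ± 0.12 (SE; adjusted p = 0.0104) for ddit3. The count fell to 12, 10 or 13 without vehicle 4, 5 or 6, and to 9 or 12 without pool 3 or 4 of filter 38. The share of all genes is not given for these fits. Harbour filter 32, with 1 pool in series 35, had 12 genes higher and 0 lower, beside 2.91% of all genes higher and 1.14% lower. Of these 9 were chaperones and lectins and 2 isomerases, and 0 of its 5 PERK and amino acid outputs passed. In that pool hspa5 was at 287 CPM (1.32 ± 0.28 SE, adjusted p = 0.0102), creld2 at 9.15 CPM (1.79 ± 0.33 SE, adjusted p = 0.00490) and pdia6 at 76.5 CPM (1.26 ± 0.20 SE, adjusted p = 0.00174). Each was above all 6 vehicle libraries. Trib3 at 60.5 CPM was above them too but did not pass (0.68 ± 0.23 SE, adjusted p = 0.0820). With no covariate for the round 5 genes were called for filter 32, dnajb11, dnajc3a, hyou1, manf and creld2. The share of all genes is not given for that fit either, so nothing is read from its count.

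Series 37 held pools of both filters of each site beside vehicle 4 to 6, and in it more of the genes were called. Road filter 26 (3 pools) had 29 of the 36 higher than vehicle, beside 17.9% of all genes, and road filter 28 (3 pools) had 0, beside 0.142%. Harbour filter 38 (3 pools) had 27 higher, beside 15.9% of all genes, and harbour filter 36 (2 pools) had 0, beside 0.175%. None of the 36 was lower in any of the 4. These comparisons share the vehicle libraries. With filter 26 the rises were 1.93 ± 0.17 (SE; adjusted p = 2.77e-07) for dnajb9b, 1.24 ± 0.15 (SE; adjusted p = 1.15e-05) for sesn2 and 1.19 ± 0.15 (SE; adjusted p = 1.10e-05) for manf. With filter 38 they were 1.44 ± 0.17 (SE; adjusted p = 9.56e-06) for dnajb9b, 1.01 ± 0.17 (SE; adjusted p = 0.000272) for creld2 and 0.88 ± 0.16 (SE; adjusted p = 0.000412) for sesn2. Isomerase p4hb passed in both, at 0.30 ± 0.070 (SE; adjusted p = 0.00324) and 0.26 ± 0.070 (SE; adjusted p = 0.00848). The genes calr, pdia3, sec61b, ern1, eif2ak3, derl1 and dnajb9a passed in neither.

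**Figure D5:**
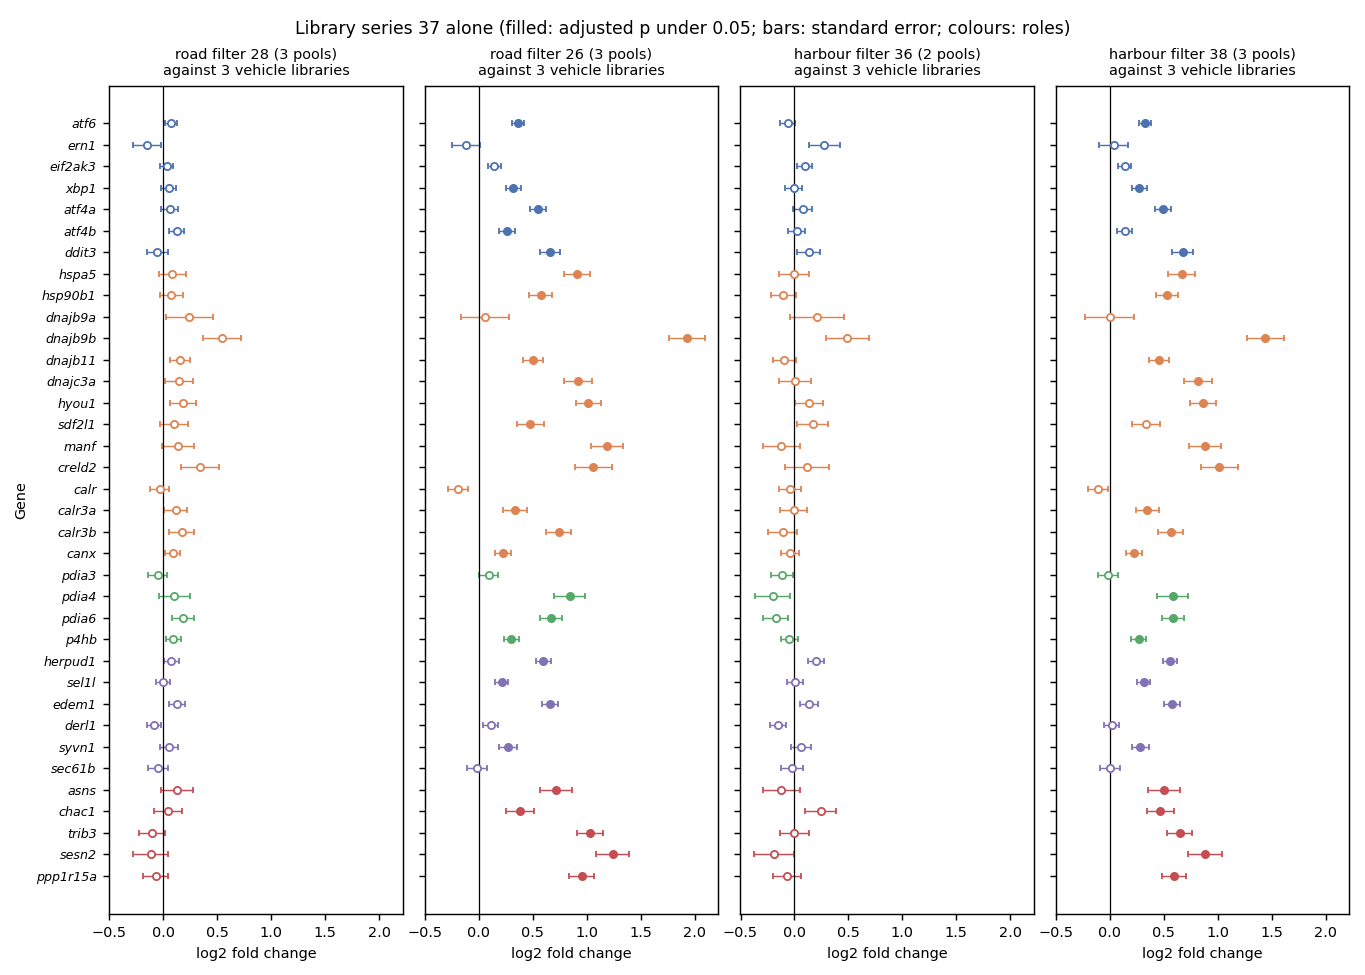
Log2 fold change of each gene against vehicle 4 to 6 within library series 37, for road filters 28 and 26 and harbour filters 36 and 38, with SE bars, colours for roles and filled points for called genes. Filters 28 and 36 lie near 0 with no filled point, and filters 26 and 38 hold 29 and 27 filled points to the right of 0.

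The filters of 1 site were then compared directly. Road filter 26 was higher than filter 28 in 13 of the 36 genes over all pools and lower in 0, beside 4.8% of all genes higher and 2.73% lower. In series 37 alone it was higher in 25, beside 14.9% of all genes. Harbour filter 38 was higher than filter 36 in 12 genes over all pools and lower in 0, beside 4.84% of all genes higher and 2.29% lower, and in 24 in series 37 alone, beside 10.6%. These counts use no pairing of pools. Deviations of harbour pools with the same number correlated at 0.39, 0.25, 0.13 and 0.16 for pools 1 to 4. The labels give the pools of both harbour filters the same replicate numbers but do not state pairs. Pairs were therefore fitted as an alternative only. The deviations were not corrected for the round, and pool 1 was the only round 1 pool of each of these filters. Pools 3 and 4 did not correlate best with their own number, pool 4 of filter 36 is of series 38 and that of filter 38 of series 37, and the title numbers of pools 1 and of pools 4 differ. With the pool number as a replicate block 0 of the 36 were called between filters 38 and 36, and 2 of all genes. The same 8 libraries without the block gave 6 genes of the 36 and 492 of all genes. On the road the title numbers match in all 4 pools. The correlations of deviations were 0.203, 0.0293, 0.112 and 0.0258 for road pools 1 to 4, and pools 1 and 3 correlated best with their own number. There the block gave 0 of the 36 and 5 of all genes, against 2548 of all genes without it. Both blocks were fitted over all 4 pools, and the counts of series 37 alone were not fitted with a block. In series 37 alone the differences between filters were 1.36 ± 0.15 (SE; adjusted p = 6.07e-06) and 1.07 ± 0.18 (SE; adjusted p = 0.000568) for sesn2 on the road and in the harbour. For dnajb9b they were 1.38 ± 0.16 (SE; adjusted p = 6.58e-06) and 0.95 ± 0.19 (SE; adjusted p = 0.00189), and for hspa5 0.82 ± 0.12 (SE; adjusted p = 8.31e-05) and 0.67 ± 0.14 (SE; adjusted p = 0.00252). The road and harbour comparisons share no library, but they come from 1 fit with a common estimate of spread. Of the 36 genes 23 passed in both, which is 92.0% of the 25 and 95.8% of the 24. The overlap over all genes was not counted, so nothing more is read from these shares. Sdf2l1 and derl1 passed on the road alone and canx in the harbour alone. The difference between the sites was not tested for them. Single pools moved these counts over all series, to between 6 and 22 for the road and 1 and 16 for the harbour. The lowest came without pool 3 of filter 38 (1 gene) and, on the road, without pool 3 or 4 of filter 26 or pool 2 or 4 of filter 28 (6 genes each). The other counts past 1.5 times were 22 without pool 1 of filter 26 and 8 without pool 3 of filter 28. In the harbour they were 3 and 6 without pools 2 and 3 of filter 36, and 6 without pool 2 or pool 4 of filter 38. The share of all genes is not given for these fits.

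Cartilage and notochord markers also moved with the filters of series 37. Their summed level was 2709 to 3352 CPM in the filter 26 pools and 2801 to 2937 CPM in the filter 38 pools, against 4616 to 5127 CPM in vehicle 4 to 6. Over all 4 pools 12 of 18 markers fell and 1 rose with filter 26, and 11 fell and 0 rose with filter 38. Of all genes 7.33% fell and 9.45% rose with filter 26, and 3.34% fell and 6.74% rose with filter 38. The summed liver markers were 11339 to 12833 and 11149 to 11755 CPM against 9143 to 9892 CPM, and the summed pancreas markers 5566 to 6381 and 6624 to 7774 CPM against 4622 to 6993 CPM. Their part in the changes of the 36 genes was not tested.

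In some genes the series 35 pool of filter 26 or 38 differed from the later pools of the same filter. It did not in others, and for filter 38 the chaperone median of pool 1, a log2 difference from vehicle of 0.53, lay inside the 0.39 to 0.66 of pools 2 to 4. For filter 26 the chaperone median of pool 1 was -0.022, below the 0.34 to 0.82 of pools 2 to 4. The median over all 36 genes was 0.035 in pool 1 of filter 26 and 0.37 to 0.58 in pools 2 to 4. The difference between a filter's effect in series 37 and in series 35 was fitted after these values were seen, so its calls describe that pattern and are no independent evidence of it. Each filter had 1 pool in series 35, whose spread was assumed to equal that of the other groups. Uniquely mapped reads were 72.3% in pool 1 of filter 26 and 76.7% in pool 1 of filter 38. The round 1 libraries ran from 71.7 to 77.1%, and the part of mapping in the differences was not tested. For filter 26, 22 of the 36 had a larger effect in series 37 at an unadjusted p under 0.05 and 0 a smaller one. Of all 22124 genes 3929 passed that threshold in either direction. After adjustment 4 genes had a larger effect in series 37 and 0 a smaller one, beside 2.02% and 1.18% of all genes. They were hsp90b1, pdia6, herpud1 and sesn2, the last with a log2 difference of 1.26 ± 0.30 (SE; adjusted p = 0.0276). Hsp90b1 lay at 91.6, 178, 244 and 226 CPM in pools 1 to 4 of filter 26, with vehicle 1 to 3 at 95.7, 116 and 158 CPM and vehicle 4 to 6 at 154, 145 and 141 CPM (0.99 ± 0.26 SE, adjusted p = 0.0416). Its first pool was below all vehicle libraries and its later pools above them. For filter 38, 6 genes had a larger effect in series 37 and 1, calr, a smaller one, beside 6.31% and 8.19% of all genes. The 6 were atf4a, dnajb9b, herpud1, edem1, trib3 and ppp1r15a. Edem1 lay at 41.8, 59.23, 56.5 and 60.4 CPM in pools 1 to 4 of filter 38 (0.73 ± 0.17 SE, adjusted p = 0.00817), against 44.6, 45.0 and 49.98 CPM in vehicle 1 to 3 and 35.2, 42.1 and 40.7 CPM in vehicle 4 to 6. Calr lay at 161, 87.1, 114 and 107 CPM, highest in the first pool (-0.66 ± 0.16 SE, adjusted p = 0.00879), against 99.6, 116 and 113 and 112, 106 and 114 CPM. BiP did not pass in filter 38 (0.0048 ± 0.31 SE, adjusted p = 0.996), at 186, 204, 261 and 231 CPM. A difference between series was also fitted over the harbour and road pools of series 35 and 37 together. This is not the difference tested for filters 26 and 38. It also takes in filters 28 and 36, and filters 30 and 32, which had no pool in series 37. It called 0 of the 36 genes and 0 of all genes. At an unadjusted p under 0.05, 1 member was higher and 1 lower, beside 5.28% of all genes higher, so nothing is read from them. Library titles carry a number beside the filter that the sources used here do not explain and that differs between these pools, so equal dose is an assumption.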

How the data were processed

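RNA of 33 pools of whole embryos was sequenced from stranded, poly-A selected, paired-end libraries, per the labels' protocols. The authors deposited whole-number raw counts per gene, and a quality table with percentages of mapped reads per library, which was used only to describe the libraries. CASAVA, BWA and the GRCz11 build are named in the submitters' processing notes. No source used here names the counting tool, its strand setting or the annotation, and reads of antisense genes and paralogs may be misassigned.

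From the counts, edgeR 4.0.16 (R 4.3.3) fitted quasi-likelihood models to the 22124 genes left by its filter on low counts, with TMM factors of 0.907 to 1.043. All 33 libraries shared 1 estimate of spread. Coefficients were the site, or the filter, plus the sequencing round, and p-values were adjusted with the Benjamini-Hochberg method. CPM per library were TMM-scaled, and log2 CPM used a prior count of 2. The script was tested on simulated data. In the 45 pairs of libraries of 1 group, no library was a copy of the other, and pairs across groups were not compared.

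The 36 members and all gene lists were chosen with earlier results of these data known. Of each other list, up to 3 called genes with the smallest p were named, and of the oxidative folding list all called genes. The groups came from the labels, and the library series from the library names. Pool numbers of harbour filters 36 and 38 were taken as pairs in an alternative fit only. The labels give the pools of both filters the same replicate numbers but do not state pairs. Deviations of pools of the same number correlated at 0.387, 0.245, 0.133 and 0.156, a hint from the data. These deviations were not corrected for the round, and pools 3 and 4 did not correlate best with their own number. Alternatives were DESeq2 1.42.0, other scalings, filters and covariates, single series, left-out libraries and filters, a random block of the filter (limma 3.58.1) and replicate blocks. The tests of filters 26 and 38 between series, the fit without vehicle 1 and 2, the unblocked fits of the same libraries and the random block for airport were added after the data were seen.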

Additional observations from a re-analysis of the deposited data

Results flagged for a closer look

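Within groups of 4 to 9 libraries, each member's values were screened for a single library far from the others. Of 252 sets of gene and group 11 had one. That is no more than the about 5% that chance gives, so the sets are listed and nothing is read from them. Among the 4 pools of harbour filter 36, pool 4 was far above the others in dnajb9a (3.631 CPM), hyou1 (57.89 CPM) and pdia6 (50.73 CPM), and it is the 1 pool of that filter in series 38. In the same filter syvn1 was apart in pool 3 (28.06 CPM) and chac1 in pool 1 (302.3 CPM). In harbour filter 38, dnajb9b was apart in pool 1 (1.594 CPM) and calr3a in pool 2 (114.5 CPM). In road filter 26, eif2ak3 was apart in pool 1 (20.44 CPM), and among all 9 road pools sec61b was apart in the same pool (65.04 CPM). In road filter 28, herpud1 was apart in pool 1 (43.7 CPM) and atf4a in pool 4 (107.3 CPM).

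The effect of a filter against vehicle differed between series 37 and series 35 for 11 pairs of gene and filter in edgeR's test of the difference. For road filter 26 the log2 differences were 0.9891 for hsp90b1, 0.786 for pdia6, 0.5406 for herpud1 and 1.265 for sesn2. For harbour filter 38 they were 0.4795 for atf4a, 1.452 for dnajb9b, 0.6528 for herpud1, 0.7295 for edem1, 0.7111 for trib3, 0.7021 for ppp1r15a and -0.6642 for calr. The series 35 side of each rests on 1 pool with the spread of the other groups, and the test was chosen after the values were seen, so it describes the difference and does not support it independently.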

How the results depend on the processing

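The count of 30 members higher in airport than in vehicle lay between 22 and 31 over all alternatives, with 0 lower in each. Of the 30, 20 were called under all 19 settings, and ern1 and pdia6 were lost only with no covariate. No alternative turned the direction of a called member. Over all called members and alternatives, 3670 values kept the call and 547 lost it. The counts of members higher that moved by more than 1.5 times follow, and the cause was not tested.

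With DESeq2 the counts were 2 for harbour, 1 for road and 1 for mock filter against vehicle (each 0 by edgeR). Of all genes DESeq2 called 227, 182 and 46 higher in these comparisons. With the library series as covariate harbour had 1, without filter 36 it had 17, and without filter 28 road had 8. With only the compared groups in the fit subway had 4 and airport against harbour 8. Fewer libraries estimate the spread there, and those of the other groups no longer enter it. Airport against harbour had 7 without filter 36, airport against road 6 without filter 28, and airport against mock filter 9 with upper quartile scaling and 1 without vehicle 3 and mock filter 2 and 3. The 1 member lower in airport than in harbour was 0 with no covariate, without filter 32, without filter 36 and with the filter as random block. Upper quartile scaling gave 14 for filter 38 against vehicle and 7 for filter 38 against 36. With no covariate filter 32 had 5 and filter 38 against 36 had 6. Series 37 alone gave 24 for filter 38 against 36 and 25 for filter 26 against 28. Shares of all genes for the higher counts without filter 36 or 28 and in series 37 alone are given above. For the remaining settings other than DESeq2 the share is not given, so nothing is read from those counts.

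With the replicate number as a block, filter 38 against 36 had 0 (6 for the same libraries without the block) and filter 26 against 28 had 0, with 5 of all genes called against 2548 without it. The road pools share a number in the labels and in the titles, with correlations of 0.203, 0.0293, 0.112 and 0.0258. Pools 1 and 3 correlated best with their own number. The block for mock filter and vehicle had 0 with and without it. No paired fit of the other comparisons was run.

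Leaving out 1 library at a time gave 0 to 2 for harbour and for mock filter against vehicle, 4 to 16 for airport against mock filter, 5 to 22 against harbour (0 to 1 lower) and 9 to 24 against road. It gave 9 to 23 for filter 38, 13 to 25 for filter 26, 1 to 16 for filter 38 against 36 (0 to 1 lower) and 6 to 22 for filter 26 against 28. These ranges are given without the share of all genes called in each fit. The lowest count of a member in any library was 18, for dnajb9a, where counting error is largest. For dnajb9b the lowest count was 21.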
